A study of Mus musculus with 7 samples.

Results

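The smooth muscle contractile genes are 10 genes listed by symbol: Myh11, Acta2, Actg2, Lmod1, Tagln, Cnn1, Smtn, Des, Mylk and Myocd. Their members on the array were the probe sets whose platform annotation names only 1 of these genes. All 10 genes were present, through 17 of the 34945 probe sets that name a single gene. They stand for 10 of 18193 genes, and each gene is described by its brightest probe set. Terminal ileum RNA of 8-week-old male C57BL6J mice was hybridised to 7 arrays, 1 for each mouse. The penicillin group, with 4 mice, had taken low-dose penicillin (6.7 mg/L) since birth. The control group, with 3 mice, was never given an antibiotic. Both groups were weaned to chow at 4 weeks and switched at 6 weeks to food in which fat supplied 45% of the calories. The arrays are biological replicates per the labels, but litter and cage were not among the details used here and cannot be told apart from penicillin.

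Smooth muscle forms the contracting outer coat of the intestine, the thin muscularis mucosae and the walls of vessels. Force is made when myosin thick filaments pull on actin thin filaments. In smooth muscle the switch is phosphorylation of the myosin light chain by myosin light chain kinase, and the transcription factor SRF with its coactivator myocardin drives many of the contractile genes. A whole ileum piece holds epithelium, muscle, nerves and connective tissue together. In such RNA, less muscle in a piece and less of each transcript per muscle cell cannot be told apart.

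The tissue label was set against marker genes. Fabp6, which carries bile acids inside ileal enterocytes, lay between log2 14.28 and 14.64 on the 7 arrays, although the growth text speaks of livers. Control replicate 3 stood apart from the rest. It lay at -29.98 on the first principal component of the genes tested, which held 48.0% of the variance, with the other 6 arrays between -2.90 and 17.6. On that array Car1, a carbonic anhydrase known from colon, was at 14.10, and Aqp8, a water channel of colon surface cells, was at 8.27. Elsewhere these genes lay between 5.11 and 10.82 and between 3.86 and 4.29. The deviations of 4 colon genes from their own means over the arrays were also averaged. This average was 0.39 on penicillin replicate 1 and -0.83 to -0.38 on the other arrays, against 2.35 on control replicate 3. The same average over 5 ileum genes was lowest on control replicate 3, at -0.60, against -0.14 to 0.36 on the other arrays. The tissue label thus fits that array less well than the others. Differences were therefore also computed without control replicate 3, and those values are given for the members, for each list and for the named list genes whose printed difference moved by more than 1.5 times or changed sign.

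All 10 contractile genes had a lower mean in penicillin mice than in control mice, by 0.03 to 0.27 on the log2 scale, and none of these differences passed the test. In limma, 0 of the 10 passed a Benjamini-Hochberg adjusted p threshold of 0.05 over all 13644 genes tested, where 0.0953% of all genes passed, 0.088% with lower values. At an unadjusted p under 0.05 there were also 0 members, against 10.7% of all genes, and 0 with groups that did not overlap, against 10.3% in either direction and 6.05% with penicillin mice lower. The median difference of the members was -0.16, and that of all genes tested was -0.01. The side of 0 was the same for all members, where 54.7% of all genes had a lower mean in penicillin mice. The members vary together on an array, so these are not 10 independent observations. Penicillin replicate 4 carried much of the difference: without it 8 of the 10 members were lower and the median was -0.06. Control replicate 1 did likewise, with 8 lower and a median of -0.09 without it, while without control replicate 3 all 10 were lower with a median of -0.23.

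**Figure D1:**
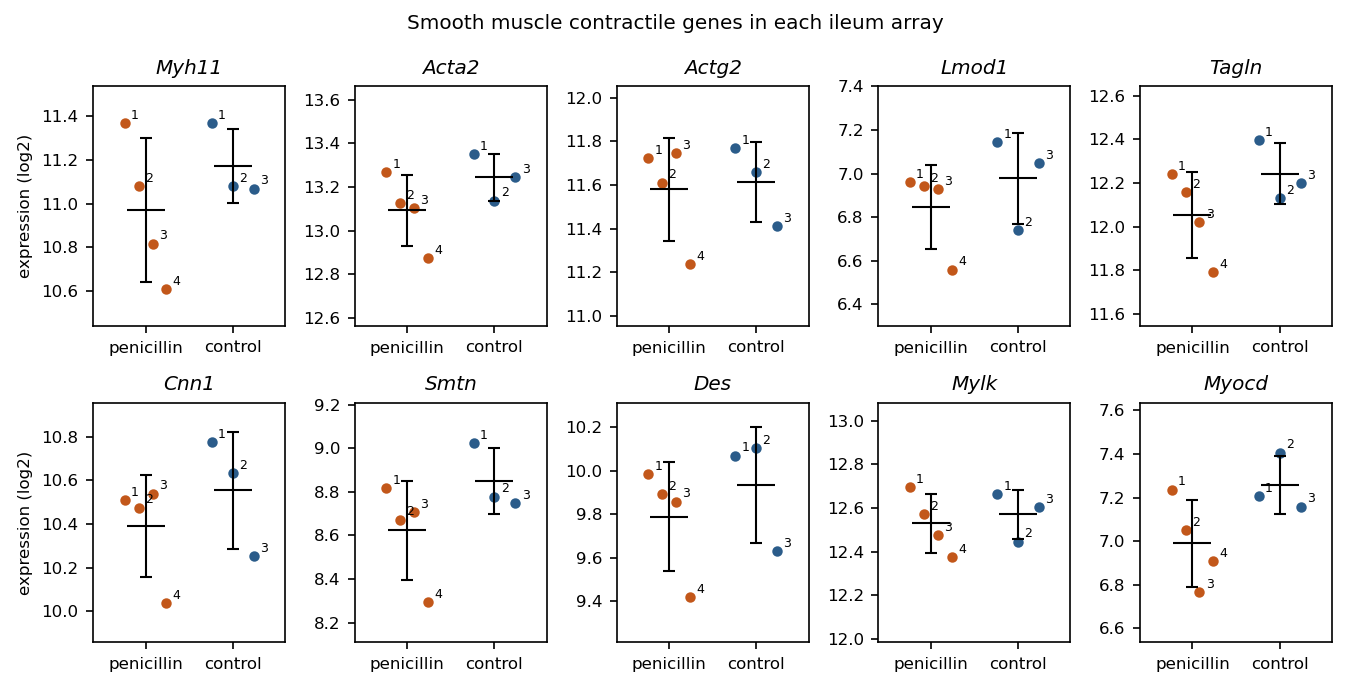
Expression (log2) of the 10 smooth muscle contractile genes on each array, penicillin mice left of control mice. Points are single mice with their replicate number, bars are mean and SD, and every panel spans the same log2 range. Penicillin replicate 4 gave the lowest value of 9 of the 10 genes, and in every panel the groups overlap.

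The motor and its switch came first among the roles. Myh11, the smooth muscle myosin heavy chain, was at log2 11.37, 11.08, 10.82 and 10.61 in penicillin replicates 1 to 4, against 11.37, 11.08 and 11.07 in control replicates 1 to 3. Penicillin replicate 1 matched the highest control, replicate 2 lay between the controls, and replicates 3 and 4 lay under all of them. The means were 10.97 ± 0.33 (SD, n = 4) in penicillin mice and 11.17 ± 0.17 (SD, n = 3) in control mice, a difference of -0.20 ± 0.18 (SE, limma adjusted p = 0.657). Mylk, the kinase that phosphorylates the light chain, was at 12.69, 12.57, 12.48 and 12.37 in penicillin mice, against 12.66, 12.45 and 12.60 in control mice. Here the penicillin values ran from above the highest control mouse to below the lowest. Its difference was -0.04 ± 0.09 (SE, limma adjusted p = 0.866), with a 95% confidence interval of -0.25 to 0.17, the narrowest of the 10, and turned to 0.011 without penicillin replicate 4 and to 0.0048 without control replicate 1.

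Both smooth muscle actins build the thin filament. Acta2, known from vascular as well as visceral muscle, was at 13.27, 13.13, 13.10 and 12.87 in penicillin mice, against 13.35, 13.14 and 13.25 in control mice. Only penicillin replicate 1 reached into the control range. The difference was -0.15 ± 0.10 (SE, limma adjusted p = 0.571). Actg2, the actin of visceral muscle, was at 11.72, 11.61, 11.75 and 11.24 in penicillin mice, against 11.77, 11.66 and 11.41 in control mice. The lowest mouse of each group, penicillin replicate 4 and control replicate 3, stood below the others, which lay close together. Its difference of -0.03 ± 0.14 (SE, limma adjusted p = 0.930) was the nearest to 0 of the 10, and its sign turned to 0.08 without penicillin replicate 4 and to 0.04 without control replicate 1. The probe set of Acta2 is of a type that the manufacturer marks as possibly shared between related transcripts. The coding sequences of the actins are nearly alike, so the separation of Acta2 from other actins is uncertain. Lmod1, leiomodin, nucleates thin filaments in smooth muscle. It was at 6.96, 6.94, 6.93 and 6.56 in penicillin mice, against 7.14, 6.74 and 7.05 in control mice. The first 3 penicillin mice differed by less than 0.05 among themselves, and all lay between the control mice. The difference was -0.13 ± 0.13 (SE, limma adjusted p = 0.697).

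SRF binds the CArG box, a motif named for its sequence, and promoters of contractile genes are a textbook place for it. RefSeq promoter windows on GRCm38.p6, from 250 bases before to 50 bases after the start, were at hand for 6 of the 10 members. Both strands were searched, on which the box reads alike. No window was at hand for Myh11, Actg2, Tagln or Myocd. None of the 6 windows held an exact CArG box, against 1.81% of the 27025 genes with a window. Beside that share, 6 windows are too few to show that the members lack the box. Sequence outside the windows was not searched. A CArG-like box, with exactly 1 base of the A and T core replaced by G or C, was searched after the first result was seen. It was in the window of 1 member, Acta2, 2 times, and in those of 9.69% of all genes. The 250 bases before the Acta2 start (GRCm38.p6, chr19:34255374-34255623, - strand) are shown because they hold this pair, in capitals, at -84 to -75 and -34 to -25 from the start.
Acta2: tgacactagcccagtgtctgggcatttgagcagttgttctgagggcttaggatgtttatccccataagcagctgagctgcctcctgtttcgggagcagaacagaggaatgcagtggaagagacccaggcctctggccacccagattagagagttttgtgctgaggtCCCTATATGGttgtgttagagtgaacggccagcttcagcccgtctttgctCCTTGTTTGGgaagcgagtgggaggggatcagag
Among the partner genes described below, 7 of 54 with a window held an exact CArG box. Stretches of 30 bases around the boxes are shown for 4 of these genes, the contractile proteins Cnn2, Myl6 and Myl9 and SRF's own gene, with the box in capitals, to set beside the diverged boxes of Acta2. A match is a description of the letters in the window, not a bound site.
Cnn2 (chr10:79988534-79988563, + strand): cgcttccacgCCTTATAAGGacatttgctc
Myl6 (chr10:128493040-128493069, - strand): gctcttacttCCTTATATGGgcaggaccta
Myl9 (chr2:156775293-156775322, + strand): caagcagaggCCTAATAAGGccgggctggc
Srf (chr17:46556225-46556254, - strand): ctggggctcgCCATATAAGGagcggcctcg
Srf (chr17:46556205-46556234, - strand): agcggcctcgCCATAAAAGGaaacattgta

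Among the actin-binding proteins of the thin filament penicillin replicate 4 was lowest and control replicate 1 highest in each case. Tagln, transgelin, was at 12.24, 12.16, 12.02 and 11.79 in penicillin mice, against 12.40, 12.13 and 12.20 in control mice. Penicillin replicates 3 and 4 were below every control mouse and the others were not, and the difference was -0.19 ± 0.12 (SE, limma adjusted p = 0.563). Cnn1, calponin, which restrains the myosin motor, was at 10.51, 10.48, 10.54 and 10.04 in penicillin mice, against 10.78, 10.63 and 10.25 in control mice. Its penicillin values formed a tight set of 3 mice and 1 low mouse, with control replicate 3 between them. The difference was -0.16 ± 0.16 (SE, limma adjusted p = 0.690). Smtn, smoothelin, a marker of contractile smooth muscle, was at 8.82, 8.67, 8.70 and 8.30 in penicillin mice, against 9.02, 8.78 and 8.75 in control mice. Its difference of -0.23 ± 0.13 (SE, limma adjusted p = 0.542) came with 4 of 4 penicillin mice under the control mean, but penicillin replicate 1 lay above the lower pair of controls.

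Des, desmin, the intermediate filament of muscle cells, was at 9.99, 9.89, 9.86 and 9.42 in penicillin mice, against 10.07, 10.10 and 9.63 in control mice. The 3 higher penicillin mice lay between the controls, and the difference was -0.14 ± 0.16 (SE, limma adjusted p = 0.733). Myocd, myocardin, the coactivator that turns on the contractile genes, was at 7.24, 7.05, 6.77 and 6.91 in penicillin mice, against 7.21, 7.41 and 7.16 in control mice. It had the largest difference of the 10, -0.27 ± 0.12 (SE), with a 95% confidence interval of -0.54 to 0.01 and a limma adjusted p of 0.473. Penicillin replicates 2, 3 and 4 lay under all controls, and penicillin replicate 1 lay within their range. For Myocd the lowest mouse was penicillin replicate 3, the only member of which this was true. The 95% intervals of all 10 members included 0, and the lowest bound among them was -0.61, for Myh11.

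Without control replicate 3 the differences of Des, Cnn1 and Actg2 were -0.30, -0.31 and -0.13, since that array held the lowest control value of each. Myh11, Smtn, Tagln and Myocd were at -0.26, -0.28, -0.21 and -0.32, and Acta2 stayed at -0.15. Lmod1 and Mylk were nearer to 0, at -0.09 and -0.02. None of the 10 passed in limma without this array, with adjusted p from 0.475 for Myocd to 0.955 for Mylk, and 0 had an unadjusted p under 0.05.

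Other probe sets of the same genes gave a like picture. Of the 17 probe sets, 16 had a lower mean in penicillin mice and 0 passed in a limma fit over 45037 probe sets, where 0.0377% passed. At an unadjusted p under 0.05 there were 2, where 8.78% of all probe sets were, a share near that of the members. They were the Acta2 set at a mean of 7.37 in penicillin mice and 7.71 in control mice, and the main Myocd set. That second Acta2 set was at 7.61, 7.49, 7.25 and 7.14 in penicillin mice, against 7.87, 7.59 and 7.66 in control mice, with only penicillin replicate 1 inside the control range. Its difference was -0.34 ± 0.12 (SE, limma adjusted p = 0.528), larger than that of the brightest set. The second Myh11 set differed by -0.21, as the first did, and both further Mylk sets differed by -0.06 and -0.09. The set that went the other way was the second of Myocd, at 4.00 to 4.14 on all arrays, near the bottom of the scale. The second Des set and the third Acta2 set also lay there, between 3.67 and 4.72.

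As a readout of muscle content, the members' deviations from their own mean over the 7 arrays were averaged on each array. This muscle score was 0.13, 0.01, -0.06 and -0.34 in penicillin replicates 1 to 4, against 0.22, 0.06 and -0.02 in control replicates 1 to 3. The highest and lowest arrays differed by 0.57 on the log2 scale, or 1.48-fold. The spread within the penicillin group, 0.47, exceeded the difference between the group means of -0.16, with -0.07 ± 0.20 (SD, n = 4) in penicillin mice and 0.09 ± 0.12 (SD, n = 3) in control mice. No test is given for this score, since its genes were chosen with results of these data known. Without penicillin replicate 4 the difference was -0.063, and without control replicate 1 it was -0.088. Control replicate 3, the array that stood apart, had the lowest muscle score of the controls, at -0.02. Members below and above their own means offset each other in that score. Without control replicate 3 the difference was -0.21.

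On penicillin replicate 4 all 10 members were below their own mean, by 0.17 for Mylk to 0.45 for Myh11. It held the lowest value of 9 of the 10 members, while 9.23% of all genes were lowest there. Control replicate 1 held the highest value of 6 of the 10, against 11.9% of all genes. Control replicate 3 split the members. Des, Cnn1 and Actg2 were 0.22, 0.21 and 0.18 below their means there, whereas Lmod1 and Acta2 were 0.15 and 0.09 above theirs. Over the 7 arrays the 45 pairs of members had Pearson correlations from 0.19 to 0.98 with a median of 0.74. Acta2 and Tagln were the closest pair and Lmod1 and Myocd the least close. Each member's correlation with the mean of the other 9 was between 0.54, for Myocd, and 0.97, for Smtn. These correlations are descriptions over 7 arrays that share their hybridisation and normalisation.

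The wider set of smooth muscle genes comprised 62 partners in 5 roles, of which 58 were on the array and 53 were above the filter on low values. None passed in limma over all genes. With an unadjusted p under 0.05, 5 were lower and 1 was higher, where 6.35% of all genes were lower. The median difference was -0.11, with 40 lower and 13 higher values, and it was -0.065 without penicillin replicate 4 and -0.035 without control replicate 1. Without control replicate 3 it was -0.11, with 36 lower values. All 8 contractile filament proteins had lower means in penicillin mice, with a median of -0.13. Without control replicate 3 Tpm4 turned from -0.04 to 0.02, and the others of this role stayed lower. Cnn3 and Cnn2, calponins of muscle and other cells, differed by -0.21 ± 0.06 and -0.25 ± 0.07 (SE, limma adjusted p = 0.331 for both). Cnn2 was at 8.89, 8.77, 8.81 and 8.69 in penicillin mice, against 9.11, 8.92 and 9.11 in control mice, with no overlap. Myl6, a light chain of smooth and non-muscle myosin, differed by -0.20 and Tpm1, a tropomyosin, by -0.11.

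**Figure D2:**
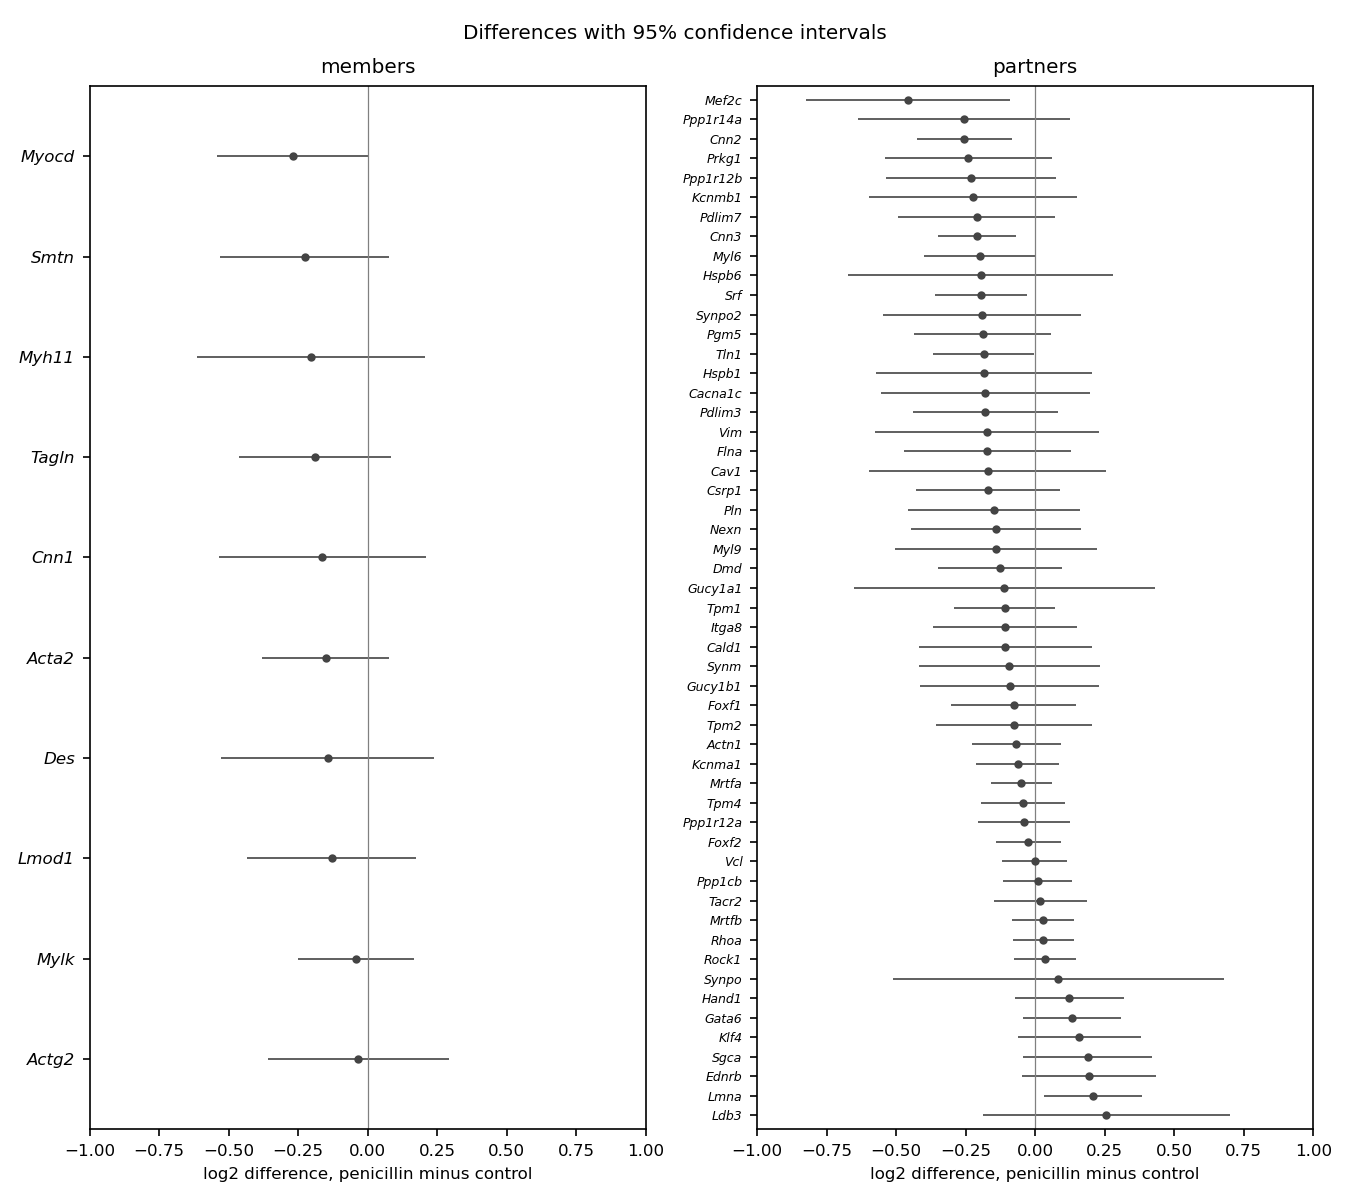
Log2 difference, penicillin minus control, with 95% confidence intervals from limma for the 10 members (left) and the 53 partners tested (right). Every member's interval includes 0, from Myocd at -0.27 to Actg2 at -0.03, and the partners range from Mef2c at -0.46 to Ldb3 at 0.26 (0.02 without control replicate 3).

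Scaffold and adhesion genes had 15 lower and 4 higher values. Tln1, talin, which ties actin to integrins, differed by -0.19 and Pgm5, a protein of muscle adhesion sites, by -0.19. Lmna, the nuclear lamin, and Sgca, a sarcoglycan, differed by 0.21 and 0.19, and Sgca by 0.29 without control replicate 3. Among regulators of light chain phosphorylation and relaxation, 7 had lower and 3 higher values. Ppp1r12b, a targeting subunit of myosin phosphatase, differed by -0.23, Ppp1r14a, its inhibitor, by -0.26, Prkg1, the cyclic GMP kinase that relaxes muscle, by -0.24, and Pln, the brake on the calcium store pump, by -0.15. Receptors and channels had 5 lower and 2 higher values. Ednrb, an endothelin receptor, differed by 0.19, Kcnmb1 and Kcnma1, subunits of the large potassium channel, by -0.22 and -0.06, and Cacna1c, the calcium channel of contraction, by -0.18. The transcription regulators were the most divided, with 5 lower and 4 higher. Srf was at 9.05, 8.93, 9.07 and 8.98 in penicillin mice, against 9.30, 9.25 and 9.06 in control mice, a difference of -0.19 ± 0.07 (SE, limma adjusted p = 0.420). Only penicillin replicate 3 reached the lowest control. Mef2c, a muscle and immune cell regulator, differed by -0.46 ± 0.16 (SE), Gata6 by 0.13 and Klf4, which is also high in epithelium, by 0.16 (0.05 without control replicate 3).

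The partners' mean deviation, computed as the muscle score was, had its extremes on the same arrays: 0.06, -0.01, -0.06 and -0.14 in penicillin replicates 1 to 4, against 0.15, -0.04 and 0.04 in control replicates 1 to 3. Of the 53 partners, 14 had a Pearson correlation over 0.8 with the muscle score over the 7 arrays, and their median was 0.62. Over the 13634 genes tested other than the members, 1.69% were over 0.8 and the median was -0.01. Of the cell type lists described below, 2 of 11 neuron and glia genes were over 0.8. So were 1 of 12 pericyte and vessel genes and 1 of 8 striated muscle genes, and the remaining lists had none. The 8 genes most like the score, with correlations of 0.966 to 0.989, were Pcnt, Ppp1r12b, Tubb6, Tmcc2, Csrp1, Ccr2, Flna and Plekho1. Ppp1r12b, Csrp1 and Flna were among the partners, and 11 partners were among the 100 most like genes. Csrp1, a muscle LIM protein, was at 10.67, 10.59, 10.52 and 10.24 in penicillin mice, against 10.83, 10.58 and 10.61 in control mice. Penicillin replicate 4 was lowest and control replicate 1 highest, as in most members. Likeness does not imply a large change: Ccr2, a chemokine receptor, spanned only 5.32 to 5.45.

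**Figure D3:**
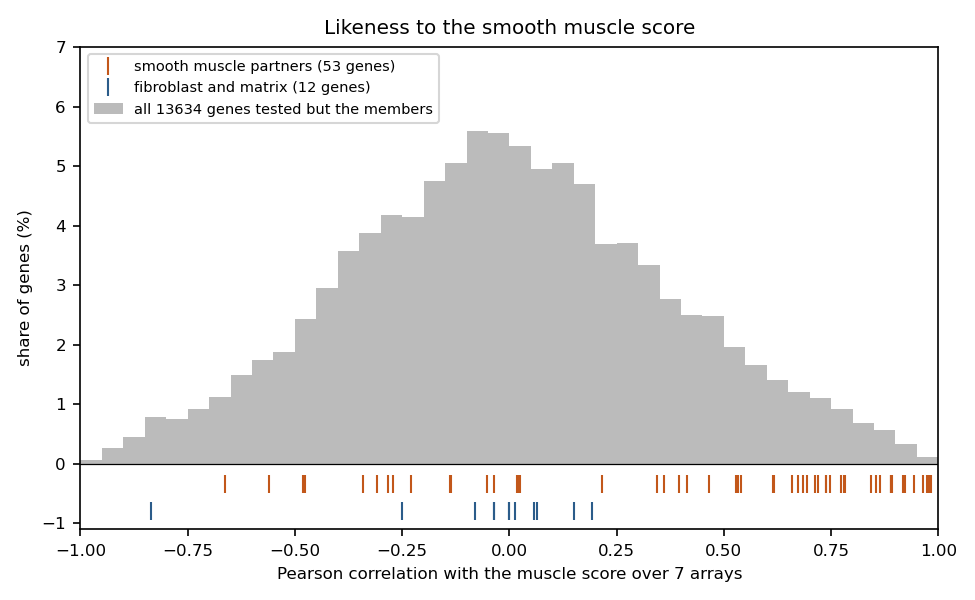
Share of genes (%) by Pearson correlation with the muscle score over 7 arrays. Grey bars show the 13634 genes tested other than the members. Ticks below mark the 53 smooth muscle partners and the 12 fibroblast and matrix genes. Over 0.8 lie 14 partners but no fibroblast gene. Of lists not marked, 2 of 11 neuron and glia, 1 of 12 vessel and 1 of 8 striated muscle genes also lie there.

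Lists for other cell types of the ileal wall were set beside the muscle score on the same arrays. Fibroblast and matrix genes averaged 0.20, -0.04, -0.39 and 0.06 in penicillin replicates 1 to 4, against -0.12, -0.09 and 0.38 in control replicates 1 to 3. Their lowest array was penicillin replicate 3 and their highest control replicate 3, neither of which was at an end of the muscle scores, and their median correlation with the muscle score was -5.6e-04. The median difference of the list was -0.09 with all arrays and 0.08 without control replicate 3. Fbln1 and Pi16 differed by 0.14 and -0.33, and Pi16 by -0.09 without that array. Pan-epithelial genes spanned only 0.13 between arrays, with control replicate 3 lowest at -0.10. Of 11 tested, 10 had a higher and 1 a lower mean in penicillin mice, with a median of 0.08 (0.03 without control replicate 3), and 0 passed in limma. The lower one was Elf3, an epithelial transcription factor. It was at 9.53, 9.42, 9.34 and 9.45 in penicillin mice, against 9.84, 9.93 and 9.78 in control mice, a difference of -0.42 ± 0.06 (SE, limma adjusted p = 0.0896) with no overlap. Cdh1, the epithelial cadherin, differed by 0.08.

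Enteric neuron and glia markers shared their extremes with the muscle score. They averaged -0.01, -0.07, -0.08 and -0.15 in penicillin replicates 1 to 4, against 0.29, -0.09 and 0.11 in control replicates 1 to 3. Of 11 genes tested, 0 passed in limma and 3 were lower at an unadjusted p under 0.05, where 6.35% of all genes were lower. Among the 3 were Vip, a neuropeptide that relaxes gut muscle, at -0.57 ± 0.17, and Uchl1, a neuronal enzyme, at -0.36 ± 0.13 (SE). Vip did not follow the muscle score: its correlation was 0.055, and its highest penicillin value, 8.76, was on replicate 4. Correlations in the list reached 0.91 with a median of 0.52. The list's median difference was -0.16 with all arrays and -0.17 without control replicate 3, when 1 of its genes was lower at an unadjusted p under 0.05. Pericyte and vessel markers were lowest on penicillin replicate 3 and highest on control replicate 3. There Emcn, an endothelial sialomucin, was at 6.24, 6.41, 6.15 and 6.37 in penicillin mice, against 6.81, 6.59 and 6.79 in control mice, a difference of -0.44 ± 0.09 (SE, limma adjusted p = 0.156) with no overlap. Mcam, of pericytes and endothelium, differed by -0.21, and the median of the list was -0.16 with all arrays and -0.07 without control replicate 3. Markers of pacemaker and interstitial cells ranged between -0.22 and 0.18, and Kit and Thbs4 differed by -0.10 and -0.06. Without control replicate 3 Kit was at 0.0069 and the list's median at 0.02, against -0.07 with all arrays. Striated muscle was at the low end: 6 of its 14 genes, among them the skeletal myosins Myh1, Myh2 and Myh4, lay under the filter, and Acta1 and Actc1 differed by -0.33 and 0.19. Acta1 was at -0.66 without control replicate 3, and the list's median was -0.02 with all arrays and 0.02 without that one. The part of any of these lists in the members' values was not tested.

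**Figure D4:**
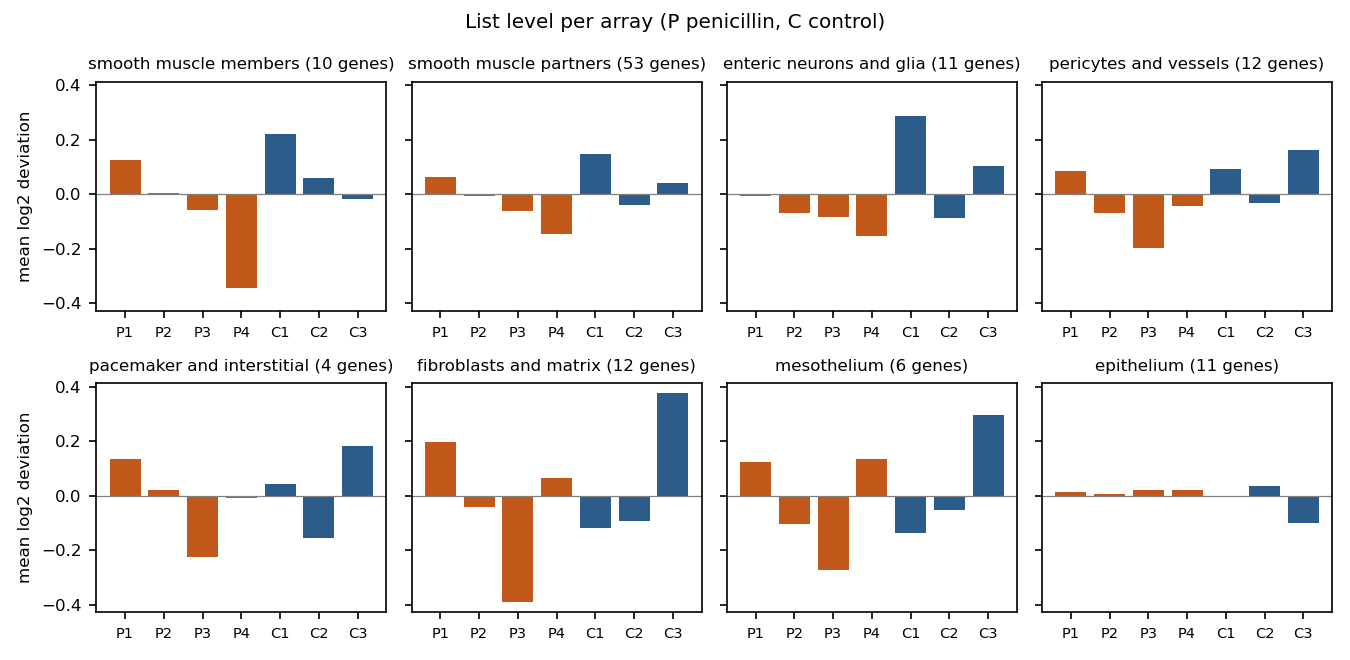
Mean log2 deviation of 8 gene lists on each array (P1 to P4 penicillin replicates, C1 to C3 control replicates), each gene relative to its own mean over the 7 arrays. The muscle lists and the neuron list are lowest in P4 and highest in C1, whereas the fibroblast list is lowest in P3 and highest in C3.

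The muscle score was also entered beside the group in the fit of all other genes. With it, 0 of 13634 genes passed in limma, and 1227 had an unadjusted p under 0.05, whereas 13 passed without it. The direction of all 13 was kept. Cd74, the MHC class II invariant chain, differed by -1.52 with the score and by -1.56 without it, and Slc9a3, a sodium-hydrogen exchanger, by -0.98 and -1.08. The adjusted p of the 13 lay between 0.144 and 0.245. The fit has 1 further coefficient on 7 arrays, so a lost call does not show a smaller difference.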

How the data were processed

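The authors deposited 1 log2 value for each probe set and array. RMA and affy are the tools listed in the submitters' processing notes; RMA adjusts background, gives all arrays 1 distribution and combines the probes of a set. No version or build is stated. RMA gives no detection call, and the number of arrays limits the precision. Of 45101 probe sets, 34958 had 1 gene symbol in the platform annotation, 932 several and 9211 none. Without manufacturer's controls, 34945 stood for 18193 genes, 34741 of the probe sets matching RefSeq by gene ID. Each gene was taken by its probe set with the highest mean, and only genes with a mean over the 25th percentile (log2 4.59), 13644 in number, were tested.

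Group differences came from limma 3.58.1 under R 4.3.3 (lmFit, eBayes, two-sided; tested on simulated data), and p-values were Benjamini-Hochberg adjusted over all genes tested. Differences are penicillin minus control on the log2 scale. The members and lists were chosen with earlier results of these data known. All members are named; of other lists, those with the largest absolute moderated t were named, up to 4 for each role of the partners and up to 2 elsewhere, with the 8 genes most like the score. Cd74 and Slc9a3, and the genes whose promoter stretches are shown, were chosen after their values were seen. Plots used matplotlib 3.10.9 (Python 3.11.15). Alternatives changed the normalisation, filter, probe set rule, variance model, array weights, block, threshold and arrays.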

Additional observations from a re-analysis of the deposited data

Results flagged for a closer look

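In the penicillin group, a mouse far from the other 3 was found for 3 of 22 values tested with Dixon's ratio of gap to range. The critical value for 4 mice was 0.829, which chance alone passes for about 1 in 20 independent values. These 22 were not independent, since all came from the same 4 mice and the muscle score averages the 10 members. Whether 3 exceeds chance was therefore not tested. Lmod1 had a ratio of 0.920, with penicillin replicate 4 at 6.56 and the others at 6.93 to 6.96. Cnn1 had a ratio of 0.872, with the same mouse at 10.04 and the others at 10.48 to 10.54. The mean of 5 ileum markers had a ratio of 0.859, with penicillin replicate 4 highest at 0.34. In that list Fgf15, a bile acid-induced hormone, was at 8.73 in this mouse and at 6.98 to 7.13 in the other penicillin mice, against 7.49 to 9.45 in control mice. The muscle score had a ratio of 0.608, under the critical value.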

How the results depend on the processing

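No member passed under any of 18 alternatives, and 8 members kept a lower mean in penicillin mice in all of them. Smtn lay between -0.36 and -0.12 and Myocd between -0.35 and -0.13. Changing only the filter, the variance model or the threshold leaves a difference as it was, so its direction could not turn there. Actg2 turned to 0.080 and Mylk to 0.011 with the replicate block. No control mouse shares the number of penicillin replicate 4, so the block sets that array aside. Its differences are those found without penicillin replicate 4, not a separate result. With arrays left out singly Actg2 ranged from -0.13 to 0.080 and Mylk from -0.10 to 0.011. Actg2 was at -0.19 without both control replicate 3 and penicillin replicate 3. Array quality weights gave control replicates 1 and 3 weights of 4.53 and 0.249. With them 6 of the 10 members were lower at an unadjusted p under 0.05. Of all 13644 genes tested, 2082 were lower and 1548 higher at that threshold. With these weights 4 of 53 partners passed, where 774 of the 13644 genes passed. The number of genes passing, 13 in the main setting, was 7 with probe sets averaged, 0 with an unmoderated statistic, 0 with the replicate block, 40 at an adjusted p of 0.1 and 2 without both control replicate 3 and penicillin replicate 3. With arrays left out singly it ranged from 0 to 15, being 0 without penicillin replicate 1 or 4 or control replicate 1 or 2, 2 without penicillin replicate 3 and 8 without control replicate 3. With the muscle score in the fit it was 0 to 1, the 1 without penicillin replicate 3. The muscle score difference was -0.22 to -0.063 with arrays left out singly and -0.74 in SD units with the members scaled. Same-numbered mice of the groups did not deviate together (r of -0.16, 0.0030 and -0.42 across genes). The labels give no pairing beyond the number, and these correlations cannot exclude a shared litter, cage or batch. The replicate block changed no member's call.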

Other observations

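Fat cell genes differed between mice by more than the muscle genes did. The mean deviation of 4 fat cell genes was 0.03, -0.68, -0.20 and 0.42 in penicillin replicates 1 to 4, against -0.53, -0.08 and 1.04 in control replicates 1 to 3. Adipoq, the fat cell hormone adiponectin, was at 11.77, 11.07, 11.34 and 11.78 in penicillin mice, against 11.42, 11.54 and 12.81 in control mice. Its difference of -0.43 ± 0.35 (SE, limma adjusted p = 0.630) and that of Cidec, a lipid droplet protein, of -0.25, did not pass; without control replicate 3 they were 0.011 and 0.050, and the list's median was 0.06, against -0.31 with all arrays. Mesothelium genes were highest on control replicate 3, at 0.30, and lowest on penicillin replicate 3, at -0.27, with Wt1 and Krt5 at differences of -0.31 and 0.04. Without control replicate 3 Wt1 was at -0.15, and the list's median was 0.07, against -0.03 with all arrays. Slc10a2, the ileal bile acid importer, was at 11.38, 11.25, 11.44 and 11.37 in penicillin mice, against 10.99, 10.71 and 9.91 in control mice, a difference of 0.82 ± 0.23 (SE, limma adjusted p = 0.308) with no overlap between the groups. Without control replicate 3 it was 0.51 ± 0.09 (SE, limma adjusted p = 0.135). Fgf15 differed by -1.14, and by -1.71 without that array, and the ileum list's median was 0.10 with all arrays and -0.05 without it. The colon gene Car4 differed by -0.22. Aqp8 differed by -1.40 only through control replicate 3, at 8.27, and by -0.0015 without it, and the colon list's median was -0.81 with all arrays and 0.04 without that one.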
